A study of Mus musculus with 8 samples.

Results

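The HoxD cluster of the mouse lies on chromosome 2, and 7 of its genes (Hoxd1, Hoxd3, Hoxd4, Hoxd8, Hoxd9, Hoxd10 and Hoxd13) were followed in embryos without Cdx2. They were taken as every non-control probe whose gene name in the scanner files was one of these, which gave 10 probes of 41174 and 7 genes of 27827 named on the array. Hoxd13, Hoxd9 and Hoxd3 had 2 probes each, called brighter and dimmer here by their signal, and the other 4 genes had 1. Posterior parts of Cdx2 null mutant embryos were set against those of wild type embryos, both of the strain C57Bl6J/CBA, at 4/5 somites and at 7/8 somites. The labels do not say which Cdx2 allele the mutants carried. The tissue was cut out between 2 landmarks, the hindmost somite boundary and the foot of the allantois. RNA of 20 embryos was pooled for each genotype and stage. Each of the 8 arrays carried a null and a wild type pool of the same stage, 4 arrays per stage, and the null pool had Cy3 on 2 of these and Cy5 on the others.

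Hox genes encode homeodomain transcription factors that give cells along the body axis their position. Within a cluster, genes at the 3′ end (group 1) are switched on earlier and reach further forward in the embryo than genes at the 5′ end (group 13). Cdx2 belongs to the caudal family of homeodomain factors, which are active in the tail end of the embryo and are known regulators of Hox genes. The genes of one group in the HoxA, HoxB, HoxC and HoxD clusters are paralogues, related by duplication of an ancestral cluster.

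Each array gives a log2 ratio of null over wild type and a log2 level of each genotype for the same probe. The 4 arrays of a stage were taken to carry the same 2 pools, as the design text reads, although the labels do not state it for each array. On that reading SDs over the 4 arrays describe technical spread only, so no test was made within a stage or between stages. The test over both stages used limma on 1 value per stage, with p-values adjusted by Benjamini-Hochberg over all 21905 probes bright enough to be kept, and an adjusted p of at most 0.05 counted as a pass. In bulk tissue, fewer cells that express a gene and less RNA per cell cannot be told apart. The ratio of Cdx2 itself was below 0 on each of the 8 arrays (-1.23 ± 0.12 at 4/5 and -1.55 ± 0.05 at 7/8 somites, SD of 4 arrays). All 15 markers of the caudal embryo had a kept probe, against 2 of 9 head markers (En2 and Lhx2), of which En2 was higher in the null pools (0.81, limma adjusted p = 4.23e-05). In the fit on the brightest kept probe of each gene, 4.36% of all genes were lower in the null pools and 6.47% higher. Of the 15 caudal markers, 6 were lower and 0 higher, with the mutated Cdx2 among these 6. Among markers of endothelium and blood 4 of 8 were lower and 0 higher, among those of gut and visceral endoderm 1 of 10 was lower and 4 higher, and among those of presomitic mesoderm and somites 1 of 10 was lower and 4 higher. Of 8 markers of lateral plate and allantois, 2 were lower and 1 higher, and of 7 neural tube markers 0 were lower and 1 higher. The part of these shifts in the HoxD values was not tested.

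The start regions of the 4 genes that passed the test, and of Hoxd3, which lies beside Hoxd4 and did not, are shown because the factor that was removed binds DNA. Each is the run of 250 bases before the annotated start, from RefSeq on GRCm38.p6, all on the plus strand. Capitals mark matches on either strand to TTTAT, the core of the sequence that CDX factors are known to bind. A longer form of that sequence, TTTATG, contains the core and was counted as well.
Hoxd13: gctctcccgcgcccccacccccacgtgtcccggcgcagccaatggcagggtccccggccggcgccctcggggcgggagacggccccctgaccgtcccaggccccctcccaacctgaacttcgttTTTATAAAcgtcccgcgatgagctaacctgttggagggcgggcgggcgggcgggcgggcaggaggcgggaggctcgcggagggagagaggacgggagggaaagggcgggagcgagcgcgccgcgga
Hoxd8: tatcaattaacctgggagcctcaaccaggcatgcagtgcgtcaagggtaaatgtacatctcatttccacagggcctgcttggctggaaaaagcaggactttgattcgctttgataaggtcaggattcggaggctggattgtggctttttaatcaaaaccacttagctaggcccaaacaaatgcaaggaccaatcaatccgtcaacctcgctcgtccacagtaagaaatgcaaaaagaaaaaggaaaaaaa
Hoxd4: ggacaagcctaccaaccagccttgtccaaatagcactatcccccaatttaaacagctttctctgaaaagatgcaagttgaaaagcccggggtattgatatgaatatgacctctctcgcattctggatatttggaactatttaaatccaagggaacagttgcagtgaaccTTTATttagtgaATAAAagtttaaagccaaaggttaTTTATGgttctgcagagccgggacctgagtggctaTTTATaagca
Hoxd3: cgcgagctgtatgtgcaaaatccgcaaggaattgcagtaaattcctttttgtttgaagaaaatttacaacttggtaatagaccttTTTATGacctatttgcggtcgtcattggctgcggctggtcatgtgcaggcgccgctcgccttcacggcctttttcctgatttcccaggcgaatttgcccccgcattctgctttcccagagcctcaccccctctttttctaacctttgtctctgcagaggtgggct
Hoxd1: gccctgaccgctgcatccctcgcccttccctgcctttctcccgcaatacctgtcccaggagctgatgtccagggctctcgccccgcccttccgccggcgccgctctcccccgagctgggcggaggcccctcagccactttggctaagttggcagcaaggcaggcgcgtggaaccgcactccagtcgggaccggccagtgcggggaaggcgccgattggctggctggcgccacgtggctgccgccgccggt

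These windows lie at chr2:74667975-74668224 for Hoxd13, chr2:74704365-74704614 for Hoxd8, chr2:74721728-74721977 for Hoxd4, chr2:74711743-74711992 for Hoxd3 and chr2:74762730-74762979 for Hoxd1. The annotated start of Hoxd3 lies before that of Hoxd4 on the same strand, so the annotated Hoxd3 gene spans Hoxd4. The Hoxd4 window held TTTAT 4 times, 1 of them as TTTATG, and at least 4 were found in 2.27% of all 32851 mouse promoter windows of that length. The Hoxd4 window is rich in A and T, with a GC content of 40.4% against a median of 52.4%, and among the 4355 windows with no more GC, 13.8% held at least 4. The Hoxd3 window held TTTATG 1 time. The Hoxd13 window held TTTAT on both strands in 1 overlapping stretch, while the windows of Hoxd8, Hoxd1, Hoxd9 and Hoxd10 held neither form. Over all windows, TTTATG was present in 10.8% and TTTAT in 37.3%. Among the 4355 windows with no more GC than that of Hoxd4, these shares were 26.7% and 81.4%. A match of letters is a description and says nothing about binding, and no match says only that these letters are not in this window.

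Over both stages, Hoxd4, Hoxd13, Hoxd8 and Hoxd1 fell in the Cdx2 null pools. The 7 genes leave out Hoxd12 and Hoxd11 of the same cluster, whose probes were not kept. Of the 10 HoxD probes, 8 were kept, at least 1 for each of the 7 genes, and 4 of these passed the test as lower and 0 as higher. The Hoxd13 probe among them was kept through the wild type channel alone, so its pass is no independent support. Of the 5 HoxD probes well above background in both genotypes on all 8 arrays, 3 passed as lower (Hoxd4, Hoxd8 and Hoxd1). Over all probes kept, 3.47% passed as lower and 4.93% as higher (8.4% in either direction). The median of the mean log2 ratio over the brighter or single probe of the 7 genes was -0.41, against -0.01 over all genes. This median includes Hoxd13, whose fitted value rests on a null signal at background and is no measure of size. By position, Hoxd8 and Hoxd4 are next to each other among the genes followed, Hoxd10 and Hoxd9 lie between Hoxd13 and Hoxd8, and Hoxd3 lies between Hoxd4 and Hoxd1. Of the kept probes, 6 had a ratio below 0 on each of the 8 arrays, which held for 8.13% of all probes kept. All 8 had a ratio below 0 on 4 of 4 arrays at 4/5 somites, against 23% of all probes kept, and at 7/8 somites 6 of them did, against 19.5%. Each of these counts includes Hoxd13, whose sign is no support because it was kept through the wild type channel alone. They also include Hoxd10, which was close to the background at 4/5 somites. The brighter Hoxd3 probe is in each of them too, with a mean of only -0.05 (limma adjusted p = 0.814).

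**Figure D1:**
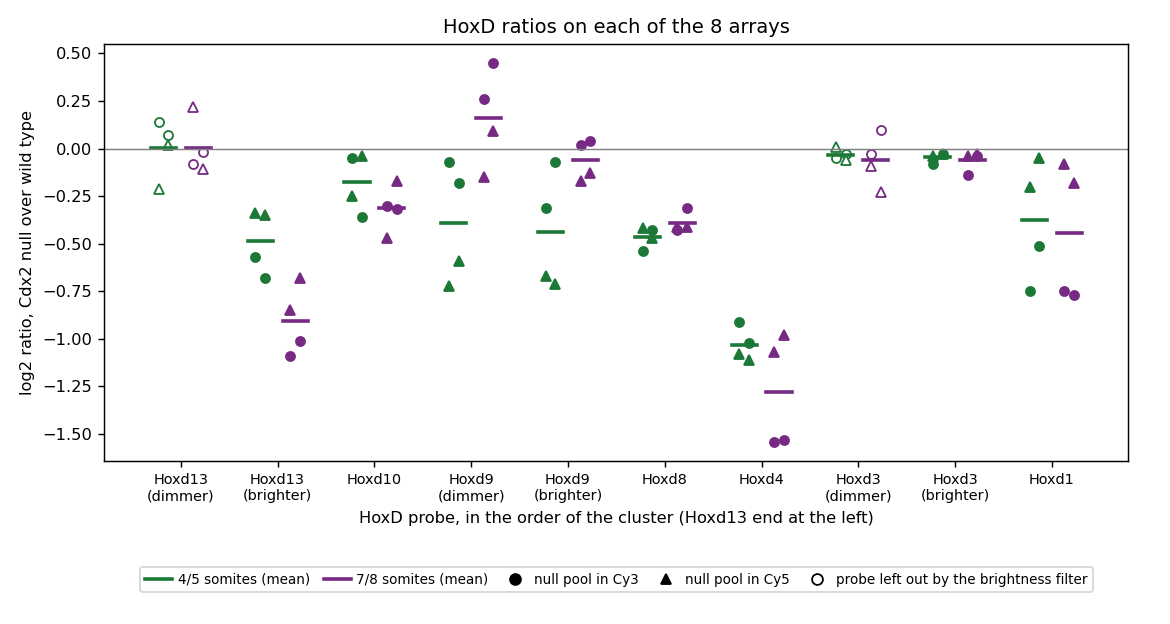
Log2 ratios of null over wild type (vertical axis) for each HoxD probe in cluster order (horizontal axis), 1 point per array, with bars at the mean of a stage. Hoxd4 lies below -0.9 on every array, the brighter Hoxd3 probe lies between -0.14 and -0.03, and the points of Hoxd1 separate by dye.

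Hoxd4, a gene of the 3′ part of the cluster that acts in the hindbrain and the neck region, fell at both stages. Its probe lies at 74566866 to 74566925 of chromosome 2 on build mm9. At 4/5 somites its log2 level was 8.84, 8.96, 8.92 and 9.08 in the null pool, against 9.75, 10.04, 9.93 and 10.19 in the wild type pool. It was 8.93, 9.16, 8.76 and 9.14 in the null pool at 7/8 somites, against 10.47, 10.23, 10.29 and 10.12 in the wild type pool. Every null value lay below every wild type value at both stages. The mean log2 ratio was -1.16 (SE 0.09, limma adjusted p = 7.05e-07), or 2.23-fold lower, with -1.03 ± 0.09 at 4/5 and -1.28 ± 0.29 at 7/8 somites (SD of 4 arrays). It was more than 2-fold lower at each stage, which with 1 sign on 4 arrays held for 0.137% of all kept probes at 4/5 and 0.205% at 7/8 somites. At 4/5 somites this hung on the processing. The ratio was -0.95 without background correction, -0.99 with median centring and -0.89 with uneven backgrounds kept. It was -1.1 with a normexp offset of 10 and -1.2 with the scanner's processed signals. At 7/8 somites the dye orders gave -1.53 with the null pool in Cy3 and -1.03 with it in Cy5, whereas at 4/5 somites they gave -0.97 and -1.09. The paralogues read -0.11 for Hoxa4, -0.20 for Hoxb4 and -0.05 for Hoxc4, and 0 of these 3 passed the test (limma adjusted p = 0.489, 0.203 and 0.834). The difference between Hoxd4 and its paralogues was not tested.

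Hoxd13 is the 5′ terminal gene of the cluster, known for its role in the digits and the hind end of the gut. Its brighter probe lies at 74509248 to 74509307 of chromosome 2 (mm9). At 4/5 somites its log2 level was 6.37, 6.38, 6.16 and 6.41 in the null pool, against 6.94, 6.71, 6.83 and 6.75 in the wild type pool. At 7/8 somites it was 6.25, 6.11, 6.23 and 6.27 in the null pool, against 7.34, 6.96, 7.23 and 6.95 in the wild type pool. The wild type signal was well above background on all 4 arrays of each stage and the null signal on 0 of 4, so the null pools give only a bound. Hoxd13 was at least 1.3-fold lower in the null pool at 4/5 somites and at least 1.65-fold lower at 7/8 somites. The bound sets the wild type mean against the lowest signal that still counts as well above background, or the null probe's own where that is higher. The fit over both stages gave a limma adjusted p of 0.000259 at a fitted mean of -0.69 (SE 0.10), from -0.48 ± 0.17 at 4/5 and -0.91 ± 0.18 at 7/8 somites (SD of 4 arrays). These fitted values rest on a null signal at background and are no measure of size. With the scanner's own processed signals the fitted mean was -2.55, and the call was lost without a filter on dim probes (-0.69, limma adjusted p = 0.0576) and without background correction (-0.43, limma adjusted p = 0.1). The dimmer Hoxd13 probe was not well above background in either genotype and was not kept.

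The ratio of Hoxd13 was lower at 7/8 than at 4/5 somites with no overlap between the arrays of the stages, which held for 1 of the 8 kept HoxD probes. Over all kept probes the stages did not overlap for 18.3%, and for 7.99% the ratio was lower at 7/8 somites. A count of 1 in 8 is near these shares and is no result about the HoxD genes. The wild type level of Hoxd13 was 1.24-fold higher at 7/8 than at 4/5 somites with no overlap between arrays, whereas in the null pools the levels of the stages overlapped below the background limit. The ratio of Hoxd13 thus sets the wild type level over a null signal at background, and is no measure of a stage difference in the null pools. With each array centred on its median in place of loess, both Hoxd9 probes also separated by stage, and with the scanner's processed signals the brighter Hoxd9 probe and Hoxd8 did.

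Hoxd8, a gene of the middle of the cluster active in the trunk, read lower in the null pools at both stages. Its probe lies at 74545021 to 74545080 of chromosome 2 (mm9). At 4/5 somites its log2 level was 6.93, 6.99, 7.06 and 7.09 in the null pool, against 7.48, 7.40, 7.49 and 7.56 in the wild type pool. It was 7.74, 7.65, 7.80 and 7.58 in the null pool at 7/8 somites, against 8.17, 8.05, 8.11 and 7.99 in the wild type pool. The 4 sets of values did not overlap and were ordered, from low to high, as null at 4/5, wild type at 4/5, null at 7/8 and wild type at 7/8 somites. The mean log2 ratio was -0.43 (SE 0.08, limma adjusted p = 0.00391), or 1.35-fold lower, with -0.47 ± 0.06 at 4/5 and -0.39 ± 0.05 at 7/8 somites (SD of 4 arrays). The level at 7/8 somites stood above that at 4/5 somites by 1.59-fold in the null pools and by 1.51-fold in the wild type pools. The call was lost without background correction (-0.33, limma adjusted p = 0.0836) and with median centring (-0.38, limma adjusted p = 0.0672). The paralogues Hoxb8 and Hoxc8 also fell, with mean log2 ratios of -0.62 and -0.29 (limma adjusted p = 4.55e-05 and 0.0318). Both were near background on some arrays. Hoxb8 was well above it on 5 of 8 arrays in the null and 8 in the wild type pools, and Hoxc8 on 3 and 5.

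Hoxd1 lies at the 3′ end of the cluster and is known in the mouse for a role in pain-sensing neurons. Its probe lies at 74603000 to 74603059 of chromosome 2 (mm9). At 4/5 somites its log2 level was 9.73, 9.70, 9.58 and 9.96 in the null pool, against 10.47, 9.91, 10.08 and 10.01 in the wild type pool. At 7/8 somites it was 9.92, 10.13, 10.06 and 10.08 in the null pool, against 10.67, 10.21, 10.83 and 10.26 in the wild type pool. The genotypes overlapped at 4/5 somites and did not at 7/8 somites. The mean log2 ratio was -0.41 (SE 0.08, limma adjusted p = 0.00541), or 1.33-fold lower, with -0.38 ± 0.31 at 4/5 and -0.44 ± 0.37 at 7/8 somites (SD of 4 arrays). The size moved with the dye order. Arrays with the null pool in Cy3 gave -0.63 and -0.76 at the 2 stages, and arrays with it in Cy5 gave -0.13 at each. Fitted on the Cy5 arrays alone, the mean was -0.13 and the call was lost (limma adjusted p = 0.431), while the Cy3 arrays alone gave -0.69 (limma adjusted p = 0.00919). The call was also lost without background correction (-0.38, limma adjusted p = 0.0666) and with median centring (-0.32, limma adjusted p = 0.0857). The gap between dye orders was 0.50 at 4/5 and 0.63 at 7/8 somites, against a median absolute gap of 0.15 over all kept probes at each stage. Its paralogue Hoxb1 read -0.22 (limma adjusted p = 0.199).

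**Figure D2:**
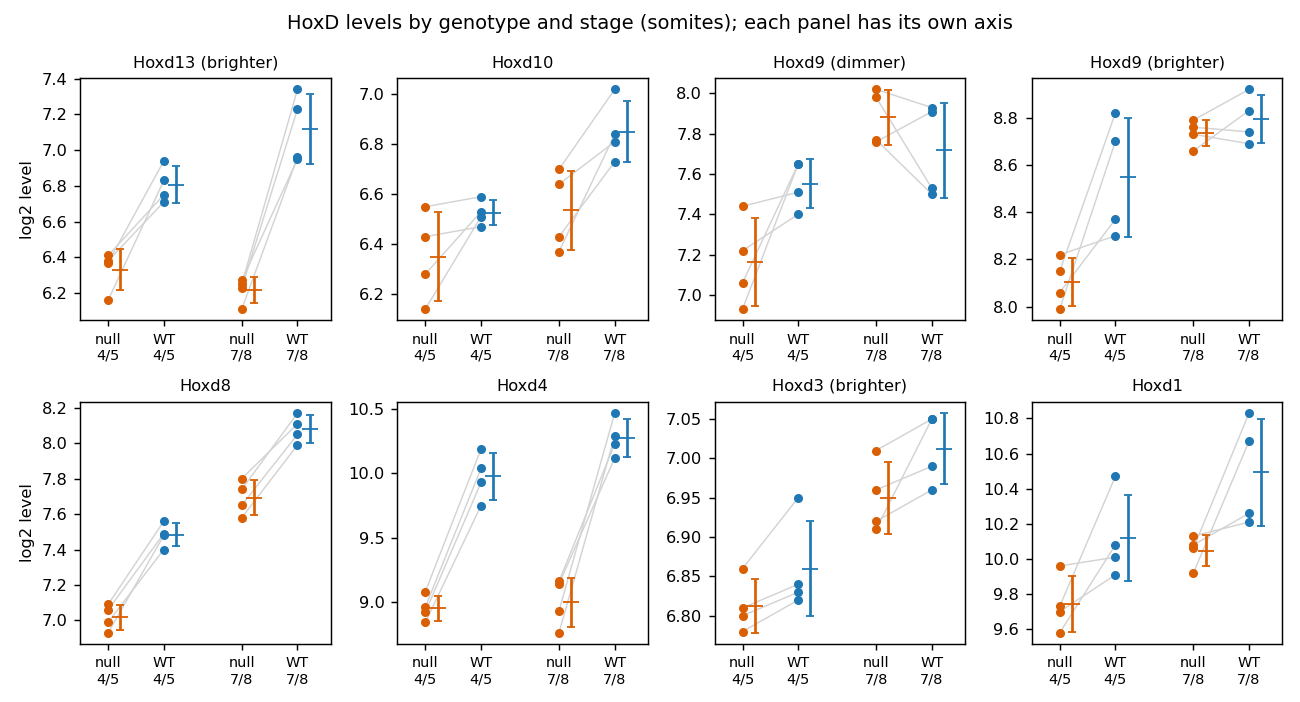
Log2 channel levels (vertical axis, a separate scale in each panel) of the 8 kept HoxD probes in the null and wild type (WT) pools at 4/5 and 7/8 somites. Points are arrays, grey lines join both channels of an array, and bars give the mean and SD of 4 arrays, so that the 4 separate steps of Hoxd8 and the low null values of Hoxd13 can be seen.

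Hoxd9, Hoxd10 and Hoxd3 did not pass the test. Hoxd9, a gene of the middle of the cluster, acts in the trunk and the limbs. Its brighter probe, at 74537676 to 74537735 of chromosome 2 (mm9), had a log2 level of 8.06, 8.15, 8.22 and 7.99 in the null pool at 4/5 somites, against 8.37, 8.82, 8.30 and 8.70 in the wild type pool. At 7/8 somites it had 8.76, 8.66, 8.73 and 8.79 in the null pool, against 8.74, 8.83, 8.69 and 8.92 in the wild type pool. The genotypes were apart at 4/5 somites and overlapped at 7/8 somites. The ratio was -0.44 ± 0.30 at 4/5 and -0.06 ± 0.11 at 7/8 somites (SD of 4 arrays), with a mean of -0.25 (SE 0.10, limma adjusted p = 0.139). The dimmer Hoxd9 probe gave -0.39 ± 0.31 at 4/5 and 0.16 ± 0.26 at 7/8 somites (SD of 4 arrays), with a mean of -0.11 (SE 0.11, limma adjusted p = 0.642). Both probes read lower at 4/5 somites on all 4 arrays, and the arrays of the stages overlapped for both. Null levels at 7/8 stood above those at 4/5 somites by 1.55-fold for the brighter and 1.64-fold for the dimmer probe with no overlap, whereas wild type levels stood 1.19-fold and 1.12-fold apart and overlapped. The dye orders also lay apart here, by -0.50 for the brighter and -0.53 for the dimmer probe at 4/5 somites, with the null pool lower in Cy5. All 3 paralogues fell, with mean log2 ratios of -1 for Hoxa9, -1.34 for Hoxb9 and -1.55 for Hoxc9 (limma adjusted p = 1e-07, 3.44e-07 and 5.81e-09).

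Hoxd10, a 5′ gene that patterns the lumbar region and the hind limb, was close to the background at its probe (74532280 to 74532339 of chromosome 2, mm9). Its log2 level was 6.55, 6.28, 6.14 and 6.43 in the null pool at 4/5 somites, against 6.59, 6.53, 6.51 and 6.47 in the wild type pool. It was 6.43, 6.37, 6.70 and 6.64 in the null pool at 7/8 somites, against 6.73, 6.84, 7.02 and 6.81 in the wild type pool. The genotypes overlapped at 4/5 somites and were apart at 7/8 somites, where the probe was well above background on 3 arrays in the null and 4 in the wild type pool. The mean log2 ratio was -0.25 (SE 0.09, limma adjusted p = 0.0964), with -0.17 ± 0.16 at 4/5 and -0.32 ± 0.12 at 7/8 somites (SD of 4 arrays). It passed the test with a smaller normexp offset of 10 (-0.44, limma adjusted p = 0.0063), with the scanner's processed signals (-0.94, limma adjusted p = 2.72e-05) and with slide as a block (-0.25, limma adjusted p = 0.0446). Its paralogue Hoxa10 fell by 0.98 on the log2 scale (limma adjusted p = 2.3e-07), and the probe of Hoxc10 was not kept.

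Hoxd3 is known for its part in shaping the first neck vertebrae. Its brighter probe, at 74585556 to 74585615 of chromosome 2 (mm9), had overlapping levels in the genotypes at both stages, with a mean of 6.81 ± 0.04 in the null and 6.86 ± 0.06 in the wild type pool at 4/5 somites and 6.95 ± 0.04 in the null and 7.01 ± 0.04 in the wild type pool at 7/8 somites (SD of 4 arrays). Its mean log2 ratio was -0.05 (SE 0.08, limma adjusted p = 0.814), with single arrays between -0.14 and -0.03. The dimmer Hoxd3 probe was not well above background on any array. The paralogues Hoxa3 and Hoxb3 read -0.16 and -0.11 (limma adjusted p = 0.319 and 0.566).

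Between the stages, the mean wild type level was higher at 7/8 somites for all 8 kept HoxD probes, and for 4 of them (the brighter probes of Hoxd13 and Hoxd3, with Hoxd10 and Hoxd8) the arrays did not overlap, which held for 8.51% of all kept probes. In the null pools 7 of 8 were higher at 7/8 somites in the mean, and for 4 (both Hoxd9 probes, Hoxd8 and the brighter Hoxd3 probe) the arrays did not overlap, against 11.3% of all kept probes. Hoxd10 was well above background on 1 null and 1 wild type array at 4/5 somites, against 3 and 4 at 7/8 somites. It was thus kept through the 7/8 somite arrays alone, and its place in these counts is no independent support. Each stage had its own pools and arrays, so stage, pool and array cannot be told apart here.

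**Figure D3:**
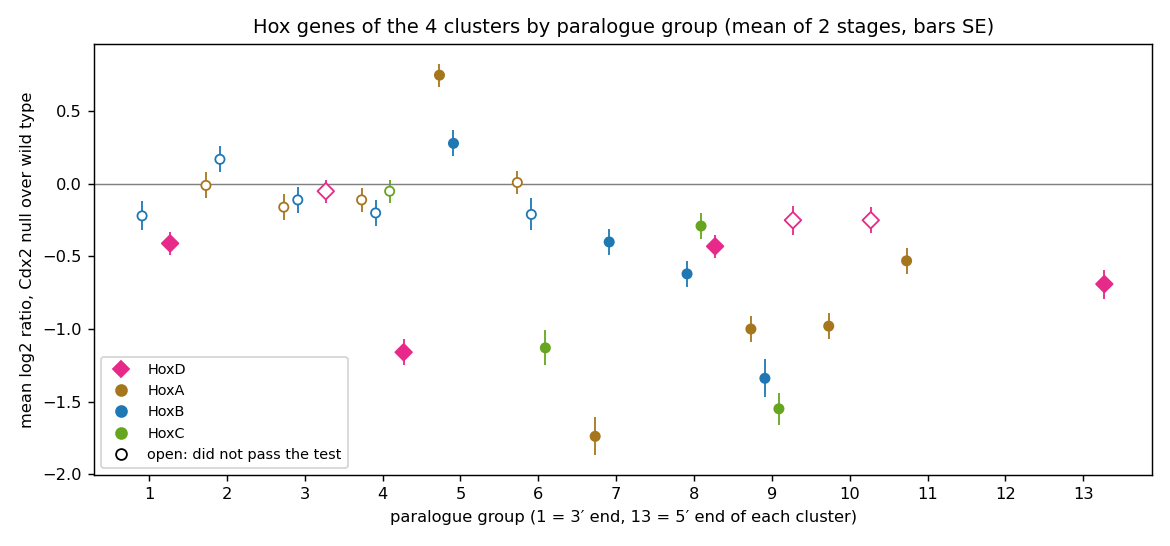
Mean log2 ratio of null over wild type over both stages (vertical axis) for the brightest kept probe of each Hox gene reported, by paralogue group (horizontal axis), with SE bars and filled symbols for genes that passed the test. HoxD genes are diamonds, with SEs from the fit over all kept probes. In group 4 Hoxd4 (-1.16) lies below the other 3, and in group 9 Hoxd9 (-0.25) lies above them.

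The order along the other clusters gives the setting for the HoxD values. Of the 8 Hox genes of groups 1 to 4 in the other clusters that are reported here, 0 fell and 0 rose (smallest limma adjusted p = 0.199), with a median of -0.11. Of 12 kept genes of groups 5 to 9, 8 fell and 2 rose, with a median of -0.51. Of groups 10 to 13, 2 of 7 had a kept probe and both fell, Hoxa10 and Hoxa11 (-0.98 and -0.53). These counts come from the fit on the brightest probe of each of 15489 genes. In the same fit 4 of the 7 HoxD genes fell, among them Hoxd13, which was kept through the wild type channel alone. Over all genes in that fit, 4.36% fell and 6.47% rose.

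Around the cluster, Evx2, the homeobox gene beyond Hoxd13, had a mean log2 ratio of 0.00 (limma adjusted p = 0.996), with 0.14 at 4/5 and -0.15 at 7/8 somites. On the other side, Mtx2 had 2 kept probes with 0.23 and 0.10 (limma adjusted p = 0.133 and 0.607). Inside the cluster, the probes of Hoxd12 and Hoxd11 were not kept. Of 11 kept genes flanking the cluster, 1 rose, Atp5g3, a subunit gene of the mitochondrial ATP synthase (0.29, limma adjusted p = 0.0323), and the median was 0.10. A count of 1 in 11 is near the 6.47% of all genes that rose and is no result about the flanking genes.

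Among 24 kept Polycomb and Trithorax genes, whose products keep Hox genes silent or active, 2 rose and 0 fell, a share near the 6.47% of all genes that rose and no result about the list. They were Phc2 and Cbx7, both of which encode subunits of a Polycomb repressive complex, with 0.31 and 0.28 (limma adjusted p = 0.0306 and 0.0345). Of 12 kept signals and factors upstream of Hox genes, 5 fell and 3 rose. Aldh1a2, which makes retinoic acid, rose by 1.06 on the log2 scale and Rarb, a retinoic acid receptor, by 0.77 (limma adjusted p = 7.31e-08 and 6.7e-06). Rarg, another such receptor that is named after its value was seen, fell by 0.35 on the log2 scale (limma adjusted p = 0.00766). Cyp26a1, which breaks retinoic acid down, fell by 0.82 on the log2 scale (limma adjusted p = 1.29e-06), and the mutated Cdx2 fell by 1.39 (limma adjusted p = 3.28e-09).

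By the pattern over the 4 dye swap pair means, 2 per stage, the genes most like Hoxd4 among 11630 named genes were Serpinb1a, Stra6l and Greb1, with root mean square differences of 0.133, 0.136 and 0.141 on the log2 scale. Those most like Hoxd8 were Rabl6, Rps6ka1 and Gpat3 (0.0245, 0.0353 and 0.036). Those most like Hoxd1 were Ydjc, Fam43a and Spock3 (0.0454, 0.0516 and 0.0548). Likeness here is a description of 4 values and was not tested.

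**Figure D4:**
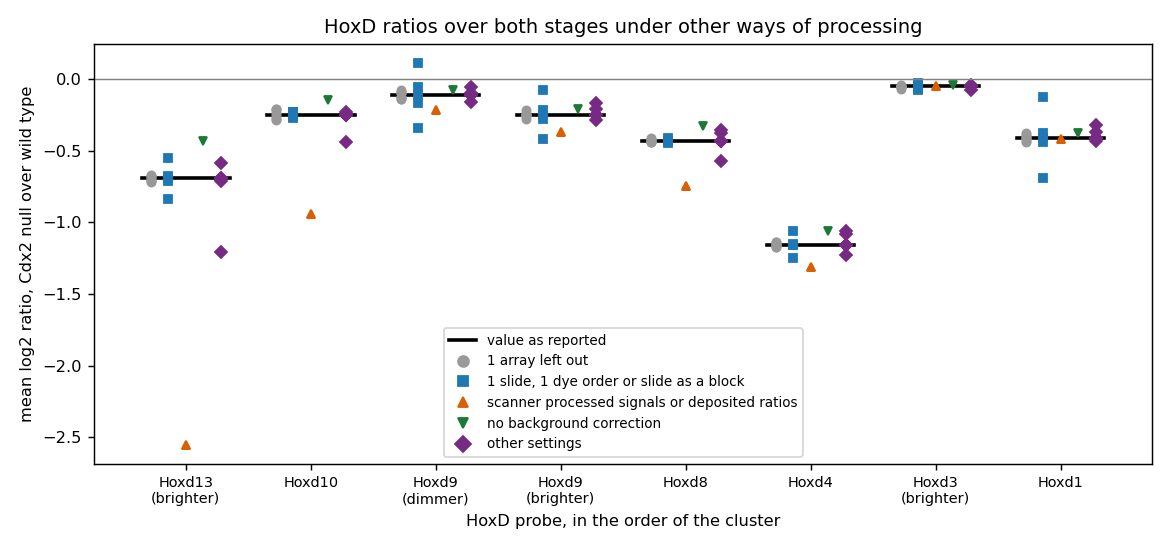
Mean log2 ratio of null over wild type over both stages (vertical axis) of the 8 kept HoxD probes (horizontal axis) as reported (black bars) and under other ways of processing (symbols by kind of setting). Hoxd4 stays between -1.31 and -1.06, while the dim probes of Hoxd13 (-2.55 to -0.43) and Hoxd10 (-0.94 to -0.15) spread widely.

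Each of the 2 slides held arrays of both stages. Slide 1 alone and slide 2 alone gave -1.15 and -1.16 for Hoxd4, -0.71 and -0.68 for Hoxd13, -0.45 and -0.41 for Hoxd8, and -0.44 and -0.38 for Hoxd1. These 4 passed the limma test on either slide and with slide as a block, a fit in which Hoxd10 passed as well (limma adjusted p = 0.0446). Both slides were taken to carry the same pools, so these passes repeat the measurement and not the embryos. Hoxd13 was kept through the wild type channel alone, so its passes are no independent support. Leaving out each of the 8 arrays in turn changed no call among the 8 kept HoxD probes, and the mean of Hoxd4 then stayed between -1.17 and -1.14. Under the 22 alternatives for Hoxd4, left-out arrays included, it passed the test each time (limma adjusted p at most 0.0263).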

How the data were processed

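RNA of 4 pools, 20 embryos each, was measured on 8 Agilent 2-colour arrays, 4 per stage, over 2 slides. Spot and background brightness are intensity values without normalization, per the file headers, and the processed signals are background-subtracted, dye-normalized intensity values made by the authors' scanner software. The values of the deposited matrix are log10 ratios, null over wild type, equal to the scanner's log ratio at 45018 of 45018 spots of each array (tolerance 1e-05). Agilent Feature Extraction was version 9.5.3 per the submitters' processing notes and 10.5.1.1 per the file headers.

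Direction came from the genotype of each channel in the labels. With limma 3.58.1 under R 4.3.3, intensity values were background-corrected (normexp, offset 50), each array was loess-normalized, and levels went through Aquantile as well. Control spots had weight 0 in loess. The 159 spots with an uneven background received the median background of their array, and 1184 outlier spots were left out. Spots of a probe were averaged. Kept were 21905 probes, those well above background for 1 genotype on 3 or 4 arrays of either stage. Per channel, 46.5% to 58.9% of probes reached that brightness. The number of pools, and not that of arrays, limits the precision for the embryos. The RefSeq table of GRCm38.p6 named 25097 probes by accession. Probe positions are on build mm9, and no gene structure of that build was used.

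The limma test (lmFit, eBayes) took 2 values per probe, so the shared prior (14.8 degrees of freedom, against 1 residual) dominates its p-values. Gene lists used the brightest kept probe of each gene. Arrays of a stage were taken to repeat the same pools and were averaged. The script was tested on simulated data. Named are the HoxD genes, their paralogues, up to 4 genes that passed per context list and the 3 nearest genes of each HoxD gene that passed, except Hoxd13, whose null signal was at background. Members and lists were chosen with earlier results of these data known. Alternatives for background, normalization, filter, probe choice, slide, dye order and left-out arrays are given at the end. 1 other Hox gene is not reported here.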

Additional observations from a re-analysis of the deposited data

Results flagged for a closer look

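Within the 4 arrays of a stage, 3 values stood apart from the other 3 arrays, of 60 sets tested, where chance gives about 1 in 20. The brighter Hoxd13 probe read 6.16 in the null pool on array 3 of 4/5 somites, against 6.37 to 6.41 on the others, all of them below the background limit. The brighter Hoxd3 probe read 6.95 in the wild type pool on array 1 of 4/5 somites, against 6.82 to 6.84. Its log2 ratio was -0.14 on array 1 of 7/8 somites, against -0.04 to -0.03.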

How the results depend on the processing

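Hoxd4 was called as lower under all 22 alternatives tried for it, with means from -1.31 to -1.06. Hoxd1 lost its call under 3 of 22, Hoxd8 under 2 of 22 and Hoxd13 under 2 of 21, and Hoxd10 gained one under 4 of 21. Without background correction 311 probes passed in place of 1840, and of the HoxD probes 1 did in place of 4. With median centring these were 806 and 2, and 78.7% of calls were higher in the null pools, against 58.6% with loess. Uneven backgrounds left as they were gave 818 probes and no filter 673. Slide as a block, which counts both slides of the same pools as repeats, gave 3110. With probes required above background in both genotypes, 3 of 5 HoxD probes passed. Leaving out 1 array gave 774 to 1588 probes, and 4 HoxD probes each time. The counts moved by over 1.5 times without array 3 (774) or 4 (1174) of 4/5 somites and without array 1 (1216) or 2 (1110) of 7/8 somites. With Hoxd13 included, whose null signal was at background, the median ratio of the 7 genes was -0.44 at 4/5 and -0.39 at 7/8 somites. It was -0.89 and -0.54 with the scanner's processed signals or the deposited matrix. At 4/5 somites it was -0.33 with uneven backgrounds kept and -0.34 from the arrays with the null pool in Cy5. Leaving out 1 array gave -0.46 to -0.38 at 4/5 and -0.42 to -0.36 at 7/8 somites. Stages separated for 3 HoxD probes in place of 1 with the scanner's signals, and for 3 with median centring. The cause of these shifts was not tested. No paired analysis was possible because the array numbers follow accession order and no label pairs arrays across stages. Arrays of the same number shared slide and dye order, and slide was tried as a block. Signals near background limit Hoxd13, Hoxd10 and Hoxd3. The means of Hoxd13 and Hoxd10 were -1.21 and -0.44 with a normexp offset of 10.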
